A study of Mus musculus with 830 samples.

Results

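The 10 imprinted genes that act on embryonic growth, or lie in imprinted clusters beside such genes, were followed through the early endoderm of mouse embryos: 10 of the 26313 genes in the read count table. They were taken as a list of names (H19, Igf2, Dlk1, Peg3, Peg10, Mest, Grb10, Gnas, Meg3 and Asb4) and not by their values. The measurements are Smart-seq3xpress libraries, a plate-based single-cell RNA-seq method, from 830 cells of tissue labelled Endoderm, stained for the epithelial protein EpCAM and sorted. HM embryos carry GFP on both Neurog3 alleles (Ngn3-GFP/GFP), and gave 171 cells. Ngn3Cre embryos carry a Cre driven by Ngn3 together with Ai6, a reporter that stays on in a cell and its descendants once Cre has acted (Ngn3-Cre; Ai6), and gave 333 cells. HZ embryos carry 1 GFP allele (Ngn3-GFP/+), gave 326 cells, and are the group the other 2 were set against. All are of strain C57BL/6XC3H, at 15, 18, 21, 24 or 27 somites, and no group without a reporter was analysed here. Neurog3 (Ngn3) is the transcription factor that starts endocrine differentiation, and the comparison asks how cells with GFP on both copies, and cells traced by Ngn3-Cre, differ from cells with 1 GFP copy.

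An imprinted gene is read from 1 parental copy, chosen by DNA methylation set in the germ line. Paternally expressed genes such as Igf2, Dlk1, Peg3, Peg10 and Mest often promote growth of the embryo or placenta, and maternally expressed genes such as H19, Meg3 and Grb10 often restrain it or lie in the same cluster as a promoter of growth. Gnas encodes the stimulatory G protein subunit alpha and is imprinted in some tissues only. The deposited counts are not split by parental copy, so every value below is the sum over both.

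The labels name no embryo, so the raw counts of all cells of a genotype and stage were summed into pools, and 11 pools of at least 10 cells were tested (HM at 15, 18, 21 and 24 somites, Ngn3Cre at 21, 24 and 27, HZ at 18, 21, 24 and 27). All 10 genes passed the filter on low counts. Cells held 1400 to 2525083 reads, with medians of 626967 in HM, 465918 in Ngn3Cre and 378157 in HZ, and pools held 8299225 to 70763553 reads. Neurog3 itself lay at 5.95 to 11.5 CPM (reads of a gene scaled to a common total) in HM pools, at 152.6 to 556.8 CPM in Ngn3Cre pools and at 81.1 to 133.5 CPM in HZ pools. Epcam reached 10 CPM in 94.2% of HM, 88.6% of Ngn3Cre and 95.1% of HZ cells, and the early endoderm factor Sox17 did so in at most 7.60% of the cells of a genotype. Clusters built without the 10 genes and named from marker genes put 1.75% of HM cells, 74.2% of Ngn3Cre cells and 47.9% of HZ cells in endocrine-like clusters. Neural-like clusters took 3.51% of HM, 13.5% of Ngn3Cre and 5.21% of HZ cells, mesenchyme-like clusters 7.02, 2.70 and 9.51%, and hepatic-like cells were 5.85% of HM, 0 of 333 Ngn3Cre and 2.76% of HZ cells. That make-up moves with genotype beside every result below, and its part was not tested beyond the fits on chosen clusters. In pools, fewer cells of a type and less RNA per cell cannot be told apart.

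Per unit of transcript length, H19 had the highest mean level and Mest the lowest. Averaged over the 11 pools, the authors' TPM (counts scaled by gene length and to a common total) was 639.8 ± 468.1 for H19, 382.1 ± 68.4 for Peg3 and 363.7 ± 354.5 for Peg10 (SD, n = 11 pools). Grb10 followed with 202.6 ± 36.2 TPM and Meg3 with 95.8 ± 32.0 TPM. Igf2 averaged 59.5 ± 38.3, Dlk1 32.8 ± 7.08, Gnas 25.4 ± 26.3, Asb4 23.4 ± 27.4 and Mest 20.3 ± 10.4 TPM. H19, Peg3 and Peg10 do not separate beyond their spread, nor do Meg3 and Igf2, Igf2 and Dlk1, or Dlk1, Gnas, Asb4 and Mest. The genes differed more in how much they varied than in their order. The highest pool exceeded the lowest 1.86-fold for Grb10 and 2.00-fold for Peg3, and by 8.23-fold for H19, 20.1-fold for Peg10, 21.5-fold for Gnas, 22.0-fold for Asb4 and 67.7-fold for Mest.

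**Figure D1:**
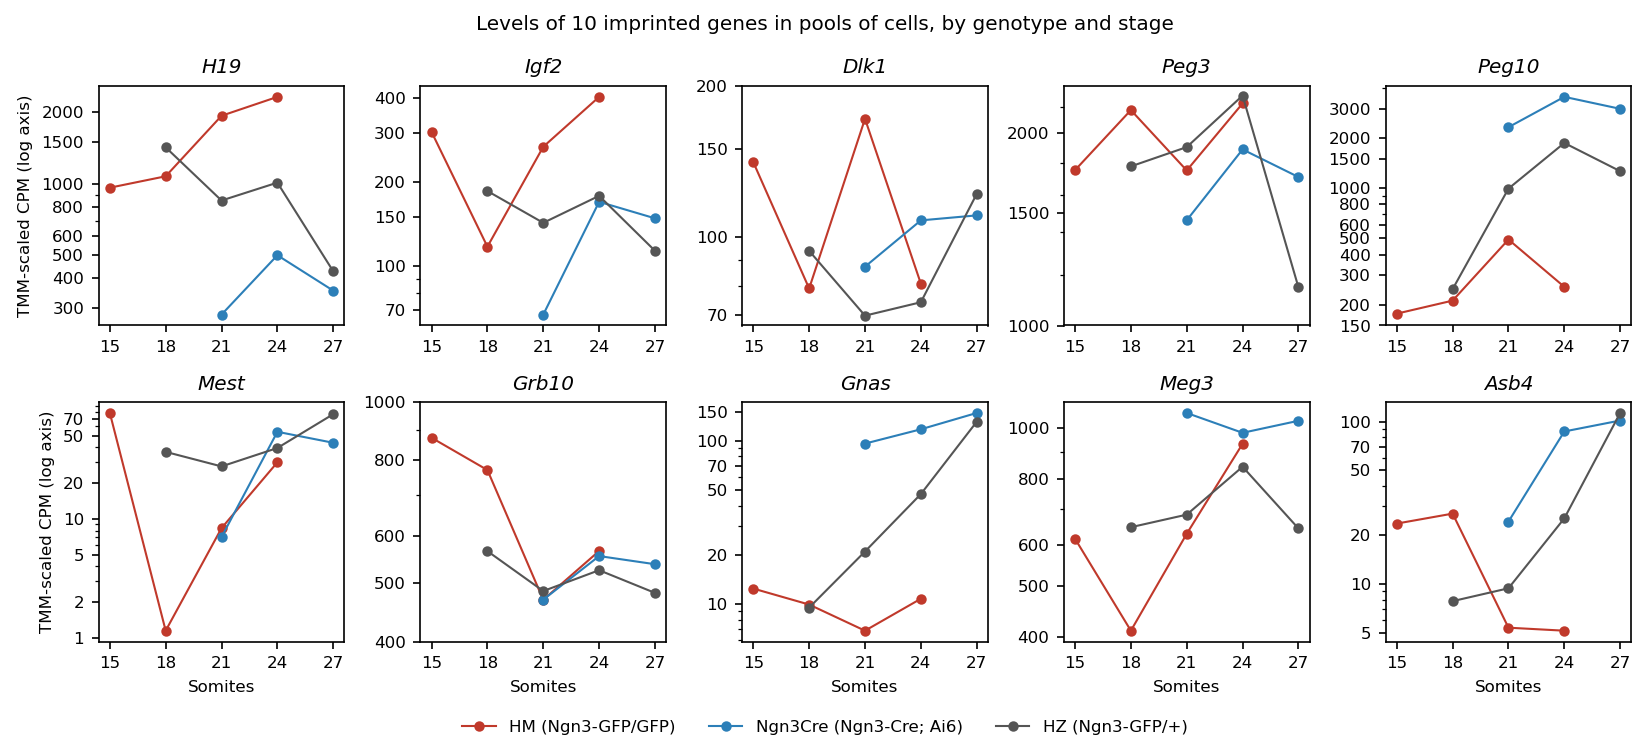
TMM-scaled CPM (log axis) of each gene against somite number, 1 point per pool of at least 10 cells, joined within HM (red), Ngn3Cre (blue) and HZ (grey). Peg10 in the 3 Ngn3Cre pools (2328 to 3542 CPM) lies above every other pool, and Gnas in HZ stands at 9.50 CPM at 18 somites and 130.3 CPM at 27.

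H19 and Igf2 are neighbours on the minus strand of chromosome 7 (GRCm38, chr7:142575529-142578143 and chr7:142650766-142666816, 72.6 kb apart). H19 makes a long noncoding RNA from the maternal copy, and Igf2 encodes a fetal growth factor made from the paternal copy. H19 stood at 962, 1074, 1929 and 2316 CPM in HM pools of 15, 18, 21 and 24 somites, at 281.5, 500.1 and 355.0 CPM in Ngn3Cre pools of 21, 24 and 27, and at 1421, 849.4, 1010 and 428.1 CPM in HZ pools of 18, 21, 24 and 27. HM was above HZ at 21 and 24 somites and below it at 18, Ngn3Cre was below HZ at every shared stage, and the ranges of both overlap that of HZ. The fitted log2 fold change was 0.84 ± 0.33 (SE) for HM against HZ (adjusted p = 0.301) and -1.15 ± 0.36 for Ngn3Cre against HZ (adjusted p = 0.244), and neither passed.

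Igf2 had 302.3, 117.6, 267.6 and 403.4 CPM in HM pools, 67.2, 170.1 and 148.5 CPM in Ngn3Cre pools, and 185.9, 143.1, 178.7 and 113.7 CPM in HZ pools, each in order of stage. Like H19 it was above HZ in HM at 21 and 24 somites and below it at 18. The log2 fold change was 0.64 ± 0.36 for HM (adjusted p = 0.487) and -0.45 for Ngn3Cre. Igf2 reached 10 CPM in 85.4% of HM cells, against 52.5% of HZ cells (95% Clopper-Pearson intervals 79.2 to 90.3% and 46.9 to 58.0%, counting error only). With each cell thinned to 100000 reads, 91.6% of 143 HM cells and 58.4% of 281 HZ cells kept a read. The share differs in the same direction with and without thinning.

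Dlk1 and Meg3 are the paternally and maternally expressed ends of a cluster on chromosome 12 (chr12:109452823-109463336 and chr12:109541001-109571726, plus strand, 77.7 kb apart). Dlk1 encodes a membrane protein of the Notch ligand family that holds back differentiation, and Meg3 is a long noncoding RNA. Dlk1 stood at 141.1, 79.1, 172.1 and 80.9 CPM in HM pools, at 87.4, 108.1 and 110.6 CPM in Ngn3Cre pools and at 94.0, 69.9, 74.3 and 122 CPM in HZ pools. These ranges overlap, and neither genotype contrast passed. The HM pool of 21 somites, with the highest Dlk1, held 8 hepatic-like cells of 54, a class in which Dlk1 was high, and their part was not tested. Meg3 stood at 615.4, 411, 629 and 933.6 CPM in HM pools, at 1069, 979.8 and 1033 CPM in Ngn3Cre pools and at 647.4, 684.1, 844.2 and 643.9 CPM in HZ pools. All 3 Ngn3Cre pools lay above all 4 HZ pools, but the log2 fold change of 0.44 ± 0.19 did not pass (adjusted p = 0.439).

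Peg10, Asb4 and Mest lie on chromosome 6. Peg10 (chr6:4747306-4760517) derives from a retrotransposon and is needed for the placenta, and Asb4 (chr6:5383386-5433022, 623 kb away) encodes an ankyrin repeat and SOCS box protein. Peg10 had 176.7, 211.6, 492.5 and 256 CPM in HM pools, 2328, 3542 and 3001 CPM in Ngn3Cre pools, and 248, 995.8, 1872 and 1267 CPM in HZ pools. Ngn3Cre lay above HZ without overlap, and HM lay below HZ at each of the 3 shared stages, by 0.23, 1.02 and 2.87 on the log2 scale at 18, 21 and 24 somites. The fitted log2 fold change was -1.32 ± 0.39 for HM against HZ (adjusted p = 0.168) and 1.27 ± 0.35 for Ngn3Cre against HZ (adjusted p = 0.185), and neither passed. The HM value was -0.68 without HM at 24 somites and -1.84 without HM or HZ at 18. Without cells of hepatic-, mesenchyme- and neural-like clusters, the same fit gave -2.95 ± 0.33 for HM (adjusted p = 0.000998). It called 50 of 17726 genes higher and 452 lower in HM. For Ngn3Cre it gave 1.35 ± 0.28 (adjusted p = 0.0429), with 31 genes called higher and 279 lower. The only other calls among the 10 in that fit were Gnas in HM (-1.76, adjusted p = 0.0377) and H19 in Ngn3Cre (-1.83, adjusted p = 0.0186). At 24 somites that fit set 74 HM cells, 1 of them endocrine-like, against 77 HZ cells, 49 of them endocrine-like. The part of this make-up was not tested. Without endocrine-like and neural-like clusters, the Peg10 value for HM lay nearer to 0 than over all cells and did not pass, as given below.

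Asb4 had 23.5, 27.1, 5.36 and 5.14 CPM in HM pools, 24.2, 87.0 and 101.6 CPM in Ngn3Cre pools, and 7.82, 9.39, 25.3 and 113.1 CPM in HZ pools. It was higher at each later stage in HZ and stood lowest in HM at 21 and 24 somites. The log2 fold change was -0.67 ± 0.78 for HM and 1.41 ± 0.64 for Ngn3Cre (adjusted p = 0.482 for Ngn3Cre). Mest (chr6:30723547-30748465), whose product resembles a hydrolase and which marks mesoderm, had 78.0, 1.15, 8.38 and 30.0 CPM in HM pools, 7.06, 54.2 and 43.8 CPM in Ngn3Cre pools, and 36.7, 27.7, 39.6 and 76.1 CPM in HZ pools. Its log2 fold change for HM was -2.08 ± 0.69 (adjusted p = 0.222), and the HM pool of 18 somites, which holds 17 cells, was the lowest of all. Without HM or HZ at 18 somites the value was -1.20, and without HZ at 24 it was -2.71. The HM pool of 15 somites, the highest for Mest, held 6 mesenchyme-like cells of 16, and their part was not tested. Copg2 overlaps Mest on the opposite strand and held 22454 reads to 14276 for Mest. Whether counting used strand is not known from the sources used here, so reads of that overlap cannot be assigned.

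Gnas (chr2:174284320-174346744, plus strand) carries receptor signals to adenylyl cyclase, a step that peptide hormone secretion depends on in mature endocrine cells. It stood at 12.4, 9.92, 6.86 and 10.8 CPM in HM pools, at 95.8, 117.2 and 147.5 CPM in Ngn3Cre pools and at 9.50, 20.9, 47.0 and 130.3 CPM in HZ pools. HM pools stayed at or under 12.4 CPM, while HZ was higher at each later stage. HM and HZ nearly met at 18 somites, and differed by -1.61 at 21 and -2.13 at 24 on the log2 scale. The fitted log2 fold change was -1.48 ± 0.50 for HM (adjusted p = 0.226) and 1.49 ± 0.44 for Ngn3Cre (adjusted p = 0.220), so neither passed over all cells. With 1 pool left out the HM value lay between -2.17 and -1.12 (without a pool of 18 somites, and without HM at 24). The locus has several starts and an antisense transcript, Nespas, with 1224 reads to 26696 for Gnas, and which starts were used cannot be read from gene counts. Reads of parts shared with overlapping transcripts may not have been counted for Gnas, so its level, and its place among the 10, is uncertain.

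Peg3 and Grb10 varied least between pools. Peg3 (chr7:6703892-6730431), a zinc finger gene named for its paternal expression, had 1752, 2176, 1750 and 2229 CPM in HM pools, 1462, 1888 and 1709 CPM in Ngn3Cre pools, and 1776, 1904, 2293 and 1148 CPM in HZ pools. Grb10 (chr11:11930508-12038683), an adaptor that dampens insulin and IGF receptor signalling, had 872.4, 771.1, 469.4 and 565.7 CPM in HM pools, 469.6, 554.8 and 537.8 CPM in Ngn3Cre pools, and 565.4, 485.3, 525.6 and 481.9 CPM in HZ pools. Log2 fold changes against HZ were 0.13 ± 0.17 (HM) for Peg3 and 0.18 ± 0.14 (HM) and 0.11 (Ngn3Cre) for Grb10. The 2 earliest HM pools had the highest Grb10 of all 11.

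**Figure D2:**
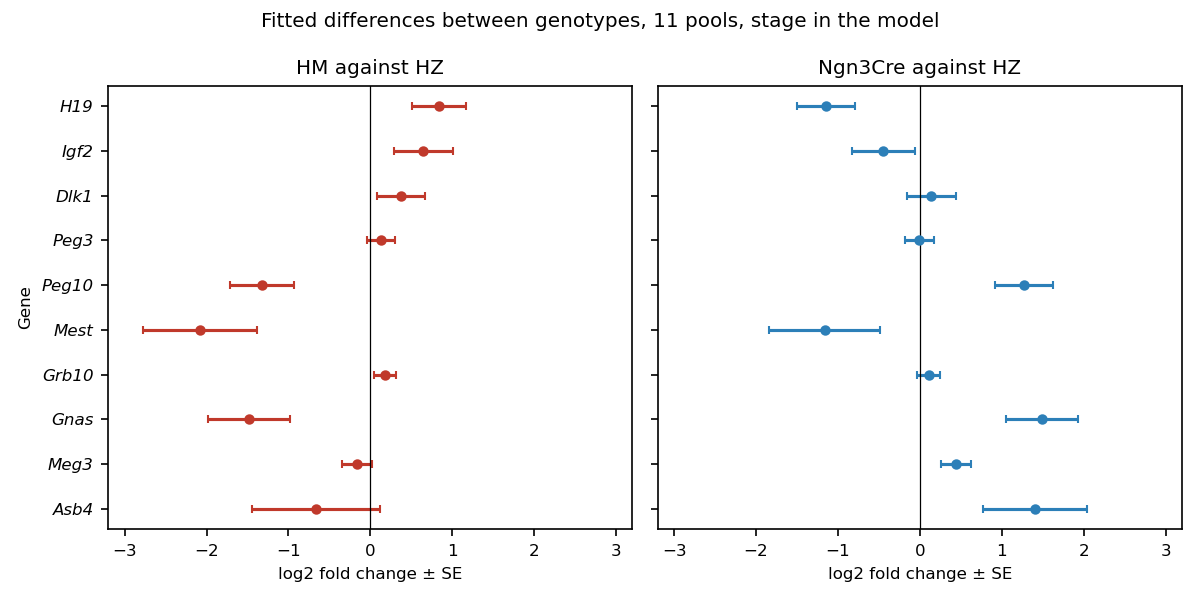
Log2 fold change with its SE for HM against HZ (left) and Ngn3Cre against HZ (right), from a model of genotype and stage on 11 pools. Peg10 and Gnas lie below 0 in HM and above 0 in Ngn3Cre, H19 lies above 0 in HM and below 0 in Ngn3Cre, and no gene passes the adjusted threshold.

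Counted together, 0 of the 10 genes were called between HM and HZ at an adjusted p under 0.05 by edgeR's quasi-likelihood test, where 1.47% of the 18420 genes tested were called. Between Ngn3Cre and HZ the count was also 0 of 10, against 0.337% of all genes. At an unadjusted p under 0.05, 4 of the 10 were counted in HM (13.4% of all genes) and 4 in Ngn3Cre (10.5% of all genes). The medians of the 10 log2 fold changes were -0.01 for HM and 0.12 for Ngn3Cre, beside -0.09 and -0.02 over all genes. DESeq2 called 3 in each contrast: Gnas, Mest and Peg10 lower in HM, and Gnas and Peg10 higher and H19 lower in Ngn3Cre. It called 1386 and 920 of all genes in the 2 contrasts. Without the HM or the HZ pool of 18 somites, edgeR called H19 higher (1.35, adjusted p = 0.0411 and 0.0431) and Gnas lower in HM (-2.17, adjusted p = 0.0468 and 0.0475). Over all genes, the fit without HM at 18 called 26 of 18462 higher and 290 lower. The fit without HZ at 18 called 31 of 18400 higher and 287 lower. The 2 contrasts share the HZ pools, so opposite signs in them are not independent.

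The same contrasts were fitted on cells of some clusters only. Without endocrine-like and neural-like clusters the HM against HZ values were 0.09 ± 0.20 for H19, -0.08 ± 0.25 for Igf2, -0.50 ± 0.37 for Peg10 and -0.16 ± 0.52 for Gnas, all nearer to 0 than over all cells. Mest lay further from 0, at -2.90 ± 0.57 (adjusted p = 0.229). This fit had 2 residual degrees of freedom and called 14 of 16675 genes. Within endocrine-like clusters alone, Ngn3Cre against HZ gave -0.94 ± 0.19 for H19 (adjusted p = 0.170), 0.53 ± 0.13 for Peg10, 0.67 ± 0.33 for Gnas and 1.40 ± 0.71 for Asb4, and called 0 of the 10 and 12 of 16687 genes (933 at an unadjusted p under 0.05).

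Over all cells no gene of the 10 had a slope with somite number that passed, and none of 16478 genes did by edgeR (0% called, 1377 at an unadjusted p under 0.05), while DESeq2 called 297 genes and none of the 10. Peg10 and Gnas had the smallest p of the 10, with 0.16 ± 0.06 log2 per somite (adjusted p = 0.522) and 0.18 ± 0.07 (adjusted p = 0.547). With HZ pools alone (edgeR, 2 residual degrees of freedom), Gnas rose by 0.42 log2 per somite (adjusted p = 0.0189). That fit called 17 of 15300 genes higher and 27 lower. The HM pools alone gave -0.04. Tested HM pools ran from 15 to 24 somites and HZ pools from 18 to 27, so these slopes cover different stages. The HZ pool of 27 somites, the highest HZ pool for Gnas, held 26 cells and had no tested HM pool beside it. Endocrine-like cells made up at most 1.25% of each tested HM pool, and 19.7, 54.4, 57.7 and 50% of HZ pools at 18, 21, 24 and 27 somites, and their part in these slopes was not tested. Tested as a difference in slope on the 8 HM and HZ pools, HM minus HZ was 0.31 ± 0.06 log2 per somite for H19 (unadjusted p = 0.000761), -0.45 ± 0.07 for Gnas (unadjusted p = 0.000237) and -0.74 ± 0.13 for Asb4 (unadjusted p = 0.000361). None passed adjustment (adjusted p = 0.642 for each, 0% of 16207 genes called, 1232 at an unadjusted p under 0.05).

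The genes peaked in different cell clusters, given here as levels with no test, since clusters and levels come from the same cells. Peg10, Gnas, Asb4 and Meg3 were highest in a cluster led by the glucagon gene Gcg (94 cells, cluster 3): 6698 CPM for Peg10, 293 for Gnas, 235 for Asb4 and 1576 for Meg3. The endocrine-like clusters led by Fev (cluster 2) and by Gm12688, Acsl1 and Ghrl (cluster 4) had 3649 and 3036 CPM of Peg10, against 75 and 55 CPM in clusters 5 and 9. Those 2 clusters had 6 and 5 of 10 pancreatic progenitor markers raised, but none among their 10 leading genes, where cluster 5 had the foregut gene Osr1, so they are given by number. Endocrine-like cluster 1 (139 cells) held 354 CPM of Peg10 and 1.1 CPM of Asb4, below the Gcg-led cluster. It had 5 of 16 endocrine markers raised, a list mean log2 fold of -0.02 and no marker among its 10 leading genes. Clusters 2, 3 and 4 had 11, 9 and 8 raised, so the name of cluster 1 is the weakest of the 4. Cluster 1 supplied 87 of the 156 HZ endocrine-like cells.

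H19, Igf2, Dlk1 and Mest had their highest levels outside the endocrine-like clusters. H19 reached 3573 CPM in hepatic-like cells, 2572 and 2313 CPM in 2 unnamed clusters, and 2126 CPM in mesenchyme-like cells, against 51.5 CPM in the Gcg-led cluster. The hepatic-like cluster had Afp, Apoa1, Apoa2, Ttr, Fgb and Fga raised, but not Alb, Hhex, Prox1 or Serpina1a. Its leading genes included Cubn (1596 CPM, against 5.96 in other clusters) and Amn. The name therefore does not place these cells in the liver. Igf2 was highest in mesenchyme-like cells (687 CPM) and neural-like cells (443 CPM) and lowest in cluster 4 (6.1 CPM). Dlk1 followed neither set closely, with 350 CPM in hepatic-like cells, 312 CPM in mesenchyme-like cells and still 170 CPM in Gcg-led cells. Mest lay at 220 CPM in mesenchyme-like cells and at 1.0 CPM in hepatic-like cells. Peg3 was highest in cluster 5 (2992 CPM) and lowest in unnamed cluster 12 (75.8 CPM, 19 cells), with 431 CPM in neural-like cells. Grb10 stayed between 189 and 733 CPM in all 13 clusters.

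**Figure D3:**
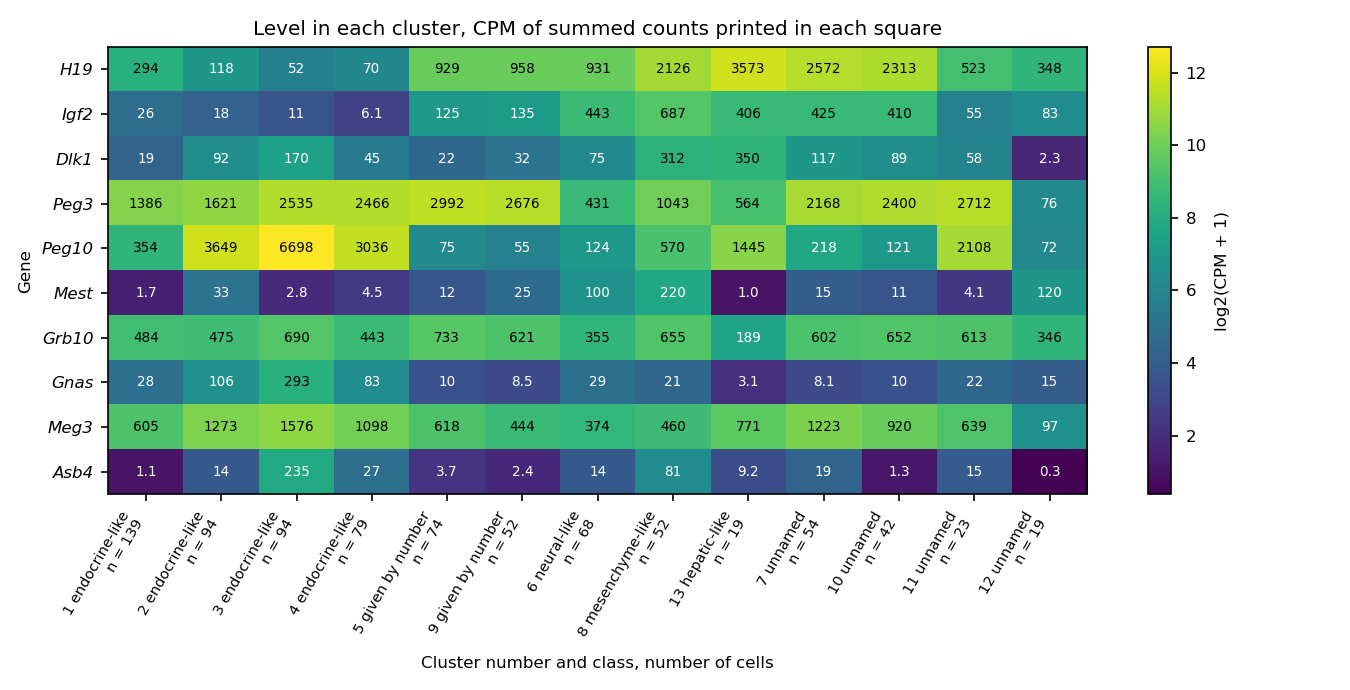
Level of each gene (rows) in 13 clusters (columns, with class and number of cells; clusters 5 and 9 by number), as CPM of summed counts printed in each square and coloured by log2(CPM + 1). Peg10 at 6698 CPM in cluster 3 is the highest value, and in the 4 endocrine-like clusters H19 is at most 294.1 CPM and Igf2 at most 26.3 CPM.

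In clusters with at least 12 cells of each genotype, H19 was higher in HM than in HZ in 4 of 5. Cluster 5 had 995.7 CPM over 36 HM cells and 818.1 over 34 HZ cells, and cluster 9 had 1196 over 25 HM cells and 550.9 over 22 HZ cells. Cluster 7 (unnamed) had 2666 CPM over 37 HM cells and 1770 over 16 HZ cells, and cluster 10 (unnamed) had 2406 over 27 HM cells and 2103 over 15 HZ cells. In mesenchyme-like cells the order was the other way, 1403 CPM over 12 HM cells and 2026 over 31 HZ cells. These are sums over cells of mixed stages with no test, given for H19 alone. At 18 somites, clusters 5 and 9 together had 399.2 CPM over 10 HM cells and 408.4 over 25 HZ cells. At 21 somites they had 942.3 CPM over 18 HM cells and 695.1 over 20 HZ cells.

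Set against the other cells of the same pool, endocrine-like cells had more Gnas in 7 of 7 pools (median log2 ratio 2.18, range 1.45 to 3.99). The other cells differed by reporter. Neural-like cells were 7 of 11, 25 of 45 and 13 of 16 of them in Ngn3Cre pools of 21, 24 and 27 somites. In HZ pools of 18, 21, 24 and 27 somites they were 3 of 48, 10 of 68, 2 of 36 and 2 of 13. Counts and medians over the 7 pools thus mix unlike comparisons. Peg10 was higher in 6 of 7 (median 2.94), the exception being HZ at 18 somites, with 103.1 CPM in 12 endocrine-like cells and 274.9 CPM in 48 other cells. H19 (median -3.30), Mest (-4.54) and Igf2 (-4.90) were lower in endocrine-like cells in all 7 pools. Meg3 was higher in 6 of 7 (median 0.97), Grb10 and Peg3 in 4 of 7 each with medians of 0.15 and 0.10, and Dlk1 in 1 of 7. Asb4 split by stage: it was higher in 4 pools and lower in 3, and the lower ones were the 3 earliest (HZ at 18 and 21 somites, Ngn3Cre at 21).

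**Figure D4:**
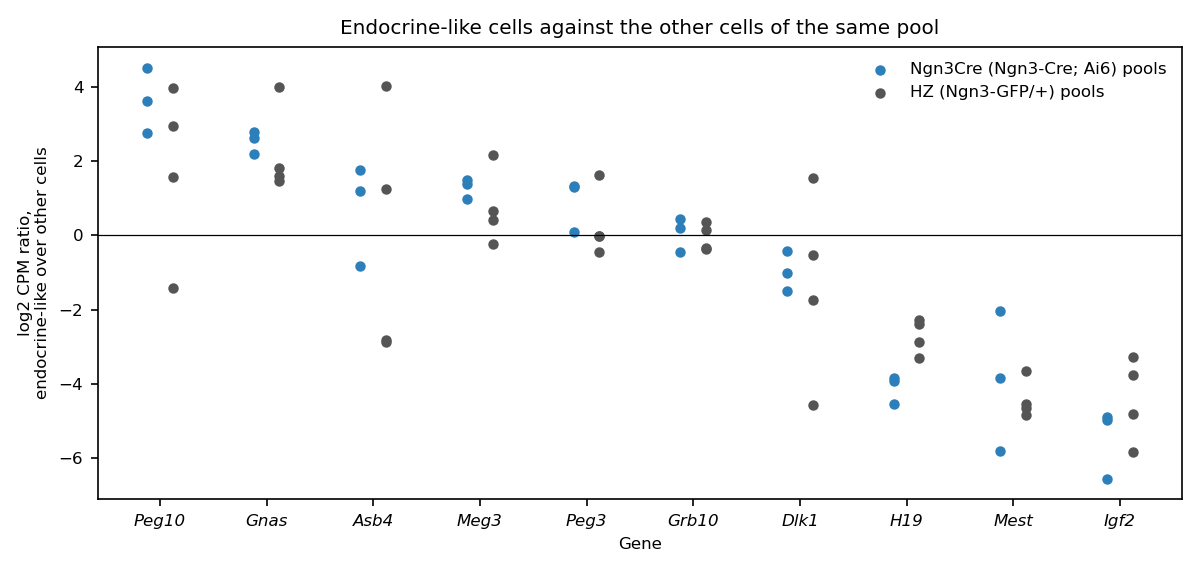
Log2 ratio of CPM in endocrine-like cells over the other clustered cells of the same pool, 1 point per pool (3 Ngn3Cre pools in blue, 4 HZ pools in grey). All 7 points lie above 0 for Gnas and below 0 for H19, Mest and Igf2, and Asb4 spans -2.86 to 4.01.

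In counts summed over the endocrine-like cells, Gnas and Asb4 rose with somite number. Gnas had 102.8, 164.6 and 188.7 CPM in Ngn3Cre pools of 21, 24 and 27 somites, and 20.2, 36.6, 74.3 and 291.2 CPM in HZ pools of 18, 21, 24 and 27. Its slope was 0.35 ± 0.05 log2 per somite (adjusted p = 0.0262, n = 7 pools, edgeR with genotype in the model). Asb4 had 23.0, 108.9 and 127.3 CPM in the Ngn3Cre pools, and 0.43, 1.33, 37.4 and 253.2 CPM in the HZ pools, with a slope of 0.85 ± 0.13 (adjusted p = 0.0262). In these sums both genes were higher at each later stage within each genotype. Medians over Ngn3Cre endocrine-like cells fell from 24 to 27 somites, at 49.2, 144.3 and 87.4 CPM for Gnas and 0, 11.8 and 3.39 CPM for Asb4. In HZ the Gnas medians were 11.8, 10.9, 30.0 and 248.8 CPM. Asb4 in HZ at 27 somites rested on 13 cells with a median of 1.75 CPM. Dlk1 (0.40 ± 0.09, adjusted p = 0.0619) and Peg10 (0.29 ± 0.12, adjusted p = 0.259) did not pass, so 2 of the 10 were called where 0.918% of 15463 genes were.

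This trend was added after the values were seen, and it depends on single pools. The Gnas call was lost without Ngn3Cre at 21 somites, HZ at 18 or HZ at 27 (adjusted p 0.0766 to 0.270), and the Asb4 call also without HZ at 24 (adjusted p 0.0540 to 0.321). Slopes stayed positive throughout, at 0.22 to 0.40 for Gnas and 0.72 to 1.08 for Asb4. The make-up of the endocrine-like cells moved with stage: the Gcg-led cluster held 10.8, 48.5 and 32.0% of them in Ngn3Cre at 21, 24 and 27 somites, and 0, 0, 18.4 and 61.5% in HZ at 18, 21, 24 and 27. Cluster 1, the least marked of the endocrine-like clusters, held 91.7, 67.9, 32.7 and 30.8% of them in those HZ pools. The part of either cluster in the slopes was not tested. Within the Gcg-led cluster of Ngn3Cre embryos, Asb4 was 129.2, 179.9 and 360.3 CPM and Gnas was 335.2, 232.1 and 382.1 CPM at 21, 24 and 27 somites (10, 50 and 16 cells). Within cluster 1 of Ngn3Cre embryos, Gnas was 16.8, 45.7 and 66.2 CPM at the same stages and Asb4 stayed between 1.22 and 2.41 CPM. Within cluster 4 of Ngn3Cre embryos, Gnas was 68.4, 96.4 and 112.7 CPM and Asb4 was 20.9, 58.0 and 21.4 CPM.

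The starts of these 2 genes differ in CG content. No methylation was measured, so the counts of CG say nothing about the imprint of either gene. The windows below run from 250 bases before to 50 after a RefSeq start (RefSeq, GRCm38.p6, plus strand), with each CG in capitals; they are shown because Gnas and Asb4 were the 2 genes with a called slope. The first start of Gnas (chr2:174284070-174284369) has 16 CG and a downstream start (chr2:174329756-174330055) has 40, with 27 and 28 at its other starts. The first start of Asb4 (chr6:5383136-5383435) has 6 and its second (chr6:5390160-5390459), not shown, has 8. The median over 32851 promoters is 7.
Gnas first start: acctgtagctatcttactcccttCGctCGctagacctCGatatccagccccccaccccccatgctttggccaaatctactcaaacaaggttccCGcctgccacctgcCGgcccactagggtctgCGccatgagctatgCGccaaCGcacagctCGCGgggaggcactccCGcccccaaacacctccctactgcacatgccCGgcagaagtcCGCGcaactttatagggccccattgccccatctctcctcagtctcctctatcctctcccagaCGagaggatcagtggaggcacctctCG
Gnas downstream start: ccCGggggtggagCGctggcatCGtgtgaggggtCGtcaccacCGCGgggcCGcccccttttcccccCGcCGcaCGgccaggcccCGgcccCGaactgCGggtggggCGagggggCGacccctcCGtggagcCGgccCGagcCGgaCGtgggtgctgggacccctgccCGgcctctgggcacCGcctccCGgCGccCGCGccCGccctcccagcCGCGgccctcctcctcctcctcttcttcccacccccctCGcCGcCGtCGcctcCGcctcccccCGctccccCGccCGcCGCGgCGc
Asb4: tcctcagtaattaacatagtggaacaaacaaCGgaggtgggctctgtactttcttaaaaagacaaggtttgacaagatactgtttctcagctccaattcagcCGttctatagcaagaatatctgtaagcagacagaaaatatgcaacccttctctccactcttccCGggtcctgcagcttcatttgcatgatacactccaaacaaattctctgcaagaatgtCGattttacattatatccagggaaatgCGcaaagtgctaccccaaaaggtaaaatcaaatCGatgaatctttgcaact

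Of 19 RefSeq promoter windows that matched 8 of the 10 genes, 16 had at least the median number of CG, with 45 at the upstream start of Grb10 and 1 at a Meg3 start as the extremes. The E-box CAGATG, a form bound by basic helix-loop-helix factors, was searched on both strands (CAGATG and CATCTG) and occurred in 1 of the 19 windows, the second Asb4 start, against 17.2% of all promoters. H19 and Peg10 had no entry.

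Across 713 cells of at least 100000 reads, pairs of the genes differed in how they correlated, described here without a test because the cells share library depth and type. H19 and Igf2 correlated at r = 0.67 (Pearson, log2(CPM + 1)), Igf2 and Mest at 0.41, Peg10 and Gnas at 0.52, Peg10 and Asb4 at 0.46, and Peg3 and Meg3 at 0.42. H19 and Gnas were at -0.41. Grb10 reached no more than 0.29 with any other of the 10, and Dlk1 correlated at 0.19 with Igf2 and at 0.33 with Asb4. Within 371 endocrine-like cells, H19 and Igf2 were at 0.24, Peg10 and Gnas at 0.55 and Gnas and Asb4 at 0.51. Dlk1 joined Peg10 there (0.46, against 0.30 over all cells). Its cluster neighbour Meg3 correlated with it at 0.25 over all cells. Read depth of a cell correlated at 0.35 with Gnas in endocrine-like cells and at 0.24 with Igf2 and with Dlk1 over all cells.

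**Figure D5:**
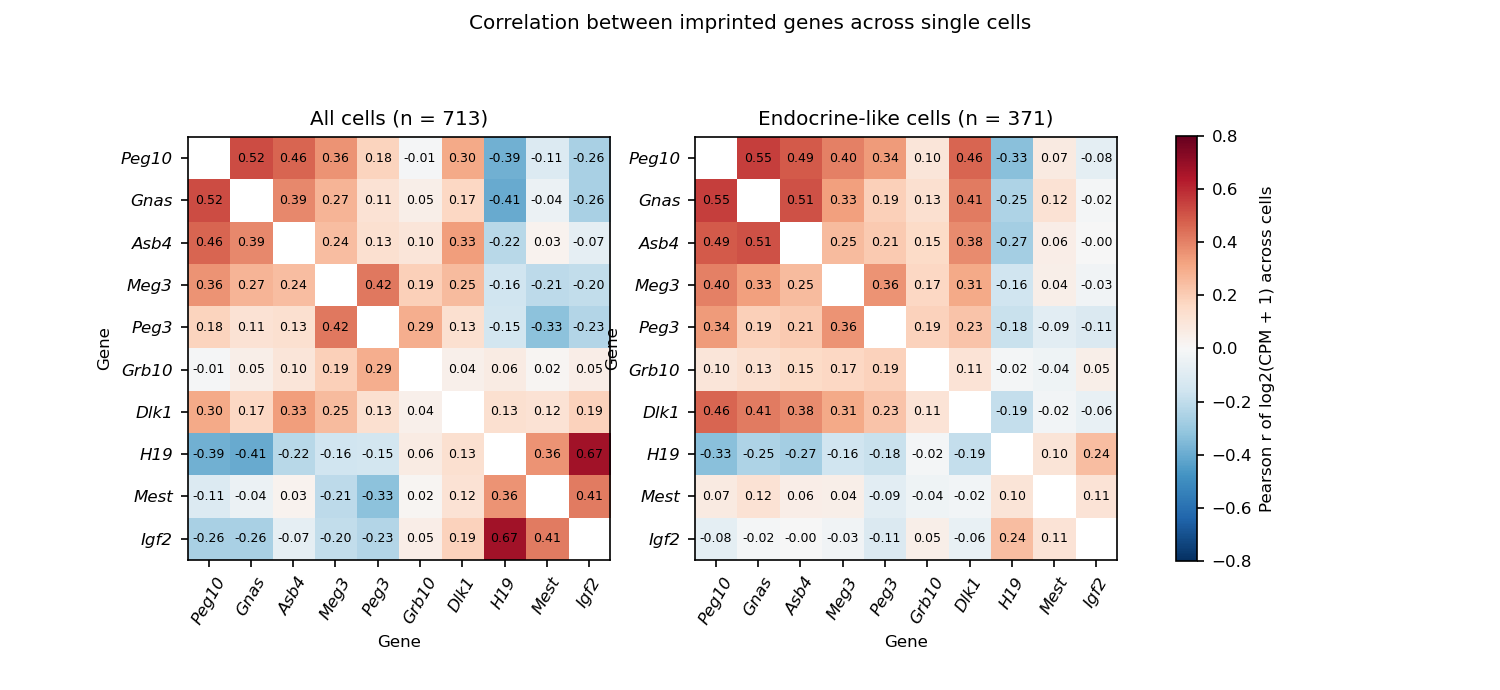
Pearson r of log2(CPM + 1) between pairs of genes across 713 cells (left) and 371 endocrine-like cells (right), on a scale from blue (negative) to red (positive). H19 with Igf2 is 0.67 over all cells and 0.24 in endocrine-like cells, most of which hold little Igf2. Peg10 with Gnas is 0.52 and 0.55.

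Among 12588 genes compared over the same 713 cells, the most alike to Peg10 was Pcsk2, a prohormone convertase (r = 0.71). Pcsk2 was also most alike to Gnas (0.66), followed by Gm14616 (0.65), and Gm14616 (0.58) and Gcg (0.54) were most alike to Asb4. H19 was nearest to Igf2 and Csrp2 (0.59), and Igf2 to H19 and the coreceptor Nrp2 (0.58). Peg3 was nearest to Fam183b (0.69) and Enpp1 (0.61), and Meg3 to Gm27000 (0.70) and the nuclear noncoding RNA Malat1 (0.48). Mest was nearest to the secreted growth factor Ptn (0.48) and 2810417H13Rik (0.46), Grb10 to Foxp1 (0.37) and Rps27 (0.32), and Dlk1 to Emb (0.36) and the apolipoprotein gene Apob (0.36).

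Of 54 other imprinted genes tested, 1 was called in HM against HZ, a share near the 1.47% of all genes. Nap1l5, a retrogene expressed from the paternal copy, was lower in HM, at 1.59 ± 1.38 CPM (SD, n = 4 pools), than in HZ, at 34.1 ± 24.8 CPM (n = 4), with a log2 fold change of -3.84 ± 0.71 (adjusted p = 0.0327). In Ngn3Cre it averaged 108.6 ± 15.0 CPM (n = 3). The call was lost in 7 of 11 fits that leave out 1 pool (HM at 21 or 24 somites, any Ngn3Cre pool, HZ at 21 or 24; adjusted p 0.0543 to 0.132). Nap1l5 stood at 120.2 CPM in endocrine-like cells, a class that held 1.75% of HM cells against 47.9% in HZ. Without endocrine-like and neural-like clusters its log2 fold change was -1.86 (adjusted p = 1.0). Over the other settings it lay between -4.33 and -0.69. The median log2 fold change of the list was -0.17 in HM, beside -0.09 over all genes, and 15 of 54 had an unadjusted p under 0.05, where 13.4% of all genes had. The 4 most abundant of the list over all pools, Nnat, Cd81, Nap1l4 and Igf2r, were not called.

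IGF signalling held 28 tested genes, of which 2 fell in Ngn3Cre against HZ (0.337% of all genes were called there) and 0 were called in HM (1.47% of all genes), where 3 had an unadjusted p under 0.05. Igfbp5, which binds IGFs outside the cell, averaged 130.9 ± 52.8 CPM in Ngn3Cre pools (n = 3) and 431.9 ± 146.5 CPM in HZ pools (n = 4), a log2 fold change of -1.48 ± 0.21 (adjusted p = 0.0253). Igf1r, the receptor for IGF1 and IGF2, averaged 35.2 ± 7.37 CPM in Ngn3Cre and 69.7 ± 14.9 CPM in HZ (-1.09 ± 0.17, adjusted p = 0.0375). Among 18 tested genes for the upkeep of imprints and for growth control, Hmga2, a chromatin protein, was the 1 gene called in Ngn3Cre (0.337% of all genes) and fell, at 49.3 ± 21.2 CPM against 182.4 ± 42.4 CPM in HZ (-2.01 ± 0.28, adjusted p = 0.0253). In HM these 3 genes lay at 0.23, 0.49 and 0.56 and did not pass. Leaving out single pools ended the Igfbp5 call in 5 of 11 fits (HM at 24, Ngn3Cre at 21, 24 or 27, HZ at 21), the Igf1r call in 7 (those 5 and HZ at 24 or 27) and the Hmga2 call in 3 (HM at 24, Ngn3Cre at 21, HZ at 21). Within endocrine-like cells alone the values were -1.22, -0.59 and -0.89, none past the threshold.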

How the data were processed

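The authors deposited a table of raw read counts per gene and cell together with TPM values of these 830 cells. Reads were handled with HISAT2 2.1.0, Trimmomatic 0.39 and FastQC 0.11.9, and GRCm38 and mm10 are named, per the submitters' processing notes. The counter, its annotation and its use of strand or molecular identifiers are unknown from the sources used here. All 830 columns were mapped to a genotype and stage by their labels, and no 2 cells had identical counts.

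Counts were summed over the cells of a genotype and stage. The 11 pools of at least 10 cells were fitted with edgeR 4.0.16 (R 4.3.3; quasi-likelihood test, TMM scaling, filterByExpr, Benjamini-Hochberg at 0.05 over all genes tested), with genotype and stage as factors (4 residual degrees of freedom), or with somite number as a slope. The HM against HZ fit was tried on simulated counts with known changes in HM. Those counts held no stage effect and no differences in cell make-up, so the trial cannot speak to either. An SE is the log2 fold change over the square root of F. How many embryos a pool holds is not given, so p-values measure the spread between pools, which may be partly technical. With stage as a factor, the HM pool of 15 somites carries no weight in the genotype contrasts, while means and SDs over pools mix stages. CPM of pools is TMM-scaled; CPM of clusters, of classes of cells and of Neurog3 is unscaled.

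The 809 cells of at least 2000 genes were clustered (scanpy 1.11.5, leidenalg 0.10.2; 2000 variable genes, 20 components, 15 neighbours, resolution 1) without 66 imprinted genes. A cluster was named "-like" where at least 5 markers of a class were raised 2-fold and their list's mean log2 fold was at least -0.1, a limit set after seeing the data. It leaves cluster 12 (7 of 171 HM, 2 of 333 Ngn3Cre and 10 of 326 HZ cells), with 5 neural markers raised, unnamed. Names were rebuilt here and no doublet caller was run. Positions come from GENCODE vM21 on GRCm38. The 10 genes, the gene lists and the markers were chosen with earlier results of these data known. From each list, genes were named that passed a test (up to 4 with the smallest p) or were among the 4 most abundant, and for each of the 10 genes the 2 most correlated genes, of which 1 is not reported here. Alternatives used DESeq2 1.42.0 and limma 3.58.1 (on log2(CPM + 1), log2(TPM + 1) and log2(TPM + 10)), where a fold change understates that of low genes.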

Additional observations from a re-analysis of the deposited data

Results flagged for a closer look

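Asb4 in the HZ pool of 27 somites stood at 113.1 CPM, far above the next highest of the 4 HZ pools, at 25.3 CPM. It was the only 1 of 20 groups of 4 pools (10 genes in HM and in HZ) in which a pool lay apart by Dixon's test, and chance gives about 1 in 20.

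Pools of under 10 cells entered no test. The HM pool of 27 somites, with 4 cells, had unscaled levels of 1820 CPM for H19, 507.2 CPM for Igf2 and 1990 CPM for Meg3, above the highest tested HZ pools, at 1390, 183.4 and 866.4 CPM. The Ngn3Cre pool of 18 somites, with 3 cells, had 296.1 CPM of Igf2, against the same HZ maximum of 183.4 CPM. Each of these pools rests on so few cells that 1 cell can set its level.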

How the results depend on the processing

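The 10 genes' counts of calls were 0 in each of the 4 planned comparisons and kept that value under most settings. Between HM and HZ, 3 were called with DESeq2, 2 without hepatic-, mesenchyme- and neural-like clusters, and 0 to 2 with 1 pool left out. Between Ngn3Cre and HZ, 3 were called with DESeq2 and 2 without those clusters. The stage trend gave 1 with HZ pools alone. The added trend in endocrine-like cells, with 2 called, gave 5 with DESeq2 (1236 of all genes), 4 with no filter on low counts (692 of all genes), and 0 to 3 with 1 pool left out (0 to 476 of all genes, beside 142). Of 643 alternative fold changes of single genes, 547 kept direction and side of the threshold, 19 newly passed, 51 no longer passed and 26 changed sign. Besides the fits with 1 pool left out, Nap1l5, Igfbp5 and Igf1r each lost their call in 6 of 11 settings, and Hmga2 in 4. The cause of these changes was not tested.

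Sign changes were all of values that had not passed. In HM against HZ, Igf2 was -0.081 and Peg3 -0.046 without endocrine- and neural-like clusters, Meg3 was 0.16 with all 14 pools, and Asb4 was 0.15 without the other named clusters. With 1 pool left out, Dlk1 spanned -0.13 to 0.67, Meg3 -0.40 to 0.060 and Asb4 -1.78 to 0.33. In Ngn3Cre against HZ, all 14 pools gave Igf2 0.30, Meg3 -0.33 and Grb10 -0.0016, endocrine-like cells alone gave Mest 1.65, and mean log2 values gave Grb10 -0.041 (CPM) and -0.013 (TPM + 1). Peg3 was 0.0151 with DESeq2 and with RLE scaling, 0.078, 0.098 and 0.067 on mean log2(CPM + 1), log2(TPM + 1) and log2(TPM + 10), and -0.27 to 0.14 with 1 pool left out, where Dlk1 spanned -0.17 to 0.31. The Gnas trend was -0.036 in HM pools alone.

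Calls over all genes moved by more than 1.5 times in places. HM against HZ gave 271 genes with edgeR, 1386 with DESeq2, 502 without the other named clusters, 171, 110 and 0 with limma on the 3 log scales above, 37 with all 14 pools and 14 without endocrine- and neural-like clusters. Ngn3Cre against HZ gave 62, with 920 by DESeq2, 105 with no filter, 310 without the other named clusters, 12 in endocrine-like cells, 2 with all 14 pools and 0 with limma. The stage trend gave 0, with 297 by DESeq2, 76 with all 14 pools and 44 in HZ pools alone. In limma, HM calls were higher in 110 and lower in 61 on mean log2(CPM + 1), against 17 higher and 254 lower in edgeR. With 1 pool left out, HM against HZ gave 89 (without HZ at 21 somites) to 318 (without HZ at 18), and Ngn3Cre against HZ 0 (without Ngn3Cre at 21) to 104 (without Ngn3Cre at 24). The endocrine-like trend gave 0 genes when HZ of 18 or Ngn3Cre of 21 somites was left out, 1 gene when HZ of 27 was, and 476 genes when Ngn3Cre of 27 was. Shares of cells moved beyond their counting interval in 25 of 30 cases at 50 CPM, 22 at 1 read and 18 after thinning, and cluster levels in 1 of 130 without shallow cells. The 117 cells under 100000 reads limit what a 0 in a cell means. No paired analysis was possible because the numbers in the labels only name cells, and each pool is 1 sum per genotype and stage, with stage already in the model.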
